A study of Mus with 9 samples.

Results

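The MEIS, PBX and PKNOX genes encode homeodomain proteins of the TALE class, which bind DNA next to HOX proteins and to one another. The genes examined were Meis1, Meis2, Meis3, Pknox1, Pbx2, Pbx3 and Pbx4, chosen by gene symbol with earlier results of these data known. They are 7 of 54532 genes in the deposited count table, and 6 of the 7 had enough reads to be tested among 15660 genes. RNA of bone marrow cells was sequenced in 9 libraries, 3 in each of the groups named Vec, CCND2wt and CCND2mut. By the series' design text, lethally irradiated C57BL/6 recipients received 100000 mCherry+ GFP+ cells from fetal livers of embryonic day 12.5, together with supporting cells. In all 3 groups the transplanted cells carried a conditional knock-in of the leukaemia fusion AML1-ETO with an mCherry tag and a retroviral EGFP vector. The vector was empty in Vec, held wild-type cyclin D2 in CCND2wt, and held cyclin D2 with alanine in place of threonine at residue 280 in CCND2mut. The labels name bone marrow cells and no sort of the marrow, so that host and supporting cells may be part of each library. No age of the mice, driver of the conditional allele or time of marrow collection is given in the sources used here.

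MEIS proteins and PKNOX1 bind PBX proteins through a shared region outside the homeodomain, and PBX proteins in turn bind DNA together with HOX proteins. In blood, MEIS1 is needed to maintain stem cells and to form megakaryocytes, and its level falls as cells mature. With HOXA9 and a PBX partner it is a well known driver of self-renewal in acute myeloid leukaemia.

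Total counts were 15043755 to 17593634 per library. The cyclin D2 gene itself went against the labels: Ccnd2 stood at 76.2 to 86.2 CPM (counts scaled to library size) in Vec, at 7.30 to 11.1 in CCND2wt and at 12.6 to 58.2 in CCND2mut. No source used here names the species of the added cyclin D2, so that the directions below compare libraries by their labels, whatever cyclin D2 they held. The CCND2wt libraries lay closer to one another than those of the other groups, with a chi-square of counts of at most 17.7 per gene against 53.3 to 148 within the other groups. Whether a group's libraries came from separate mice is not in the labels, so that p-values measure the spread between these libraries, which may be technical. Vec 1 held 1.51% haemoglobin counts and 0.588% immunoglobulin counts, where the other 8 libraries held at most 0.356% and 0.0441%. Xist, which coats the silenced X chromosome, stood at 10.7 to 879 CPM in Vec, 2111 to 2305 in CCND2wt and 4.31 to 11.8 in CCND2mut. The Y-linked gene Ddx3y stood at 64.5 to 318 CPM in Vec and 0.605 to 0.635 in CCND2wt. It stood at 27.4 CPM in CCND2mut 1 and at 0 in CCND2mut 2 and 3, which were thus low in both genes. Vec 1 and Vec 4 held Xist at 170 and 879 CPM beside Ddx3y at 134 and 64.5. The groups thus also differed in sex-linked genes, and the sex of the cells was not tested. Levels are CPM scaled by TMM factors and given as mean ± SD (n = 3 libraries). Changes are log2 fold changes with their standard error (SE) and a p adjusted over all tested genes, from edgeR's quasi-likelihood test with a threshold of 0.05. In marrow, fewer cells of a type and less RNA per cell cannot be told apart.

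The 7 genes followed different patterns over the groups. Meis1 was highest in Vec and nearly gone in CCND2mut, Pbx4 was lower in CCND2wt and lower again in CCND2mut, and Pbx3 was high in CCND2wt alone among the groups. Meis3 was low in Vec and CCND2wt and lower in CCND2mut. Pbx2 and Pknox1 passed the test in none of the 3 comparisons (edgeR), and Meis2 was near the detection limit throughout. In CCND2wt against Vec, 1 member rose and 1 fell, where 9.71% and 9.05% of all tested genes did so (18.8% in either direction). In CCND2mut against Vec, 3 fell and 0 rose, against a background of 26.9% and 24.9% (51.8% in either direction). In CCND2mut against CCND2wt, 4 fell and 0 rose, against 23.8% and 23.2% (47% in either direction). At an unadjusted p under 0.05 in edgeR, and in DESeq2 and limma-voom, 0 members likewise rose in both comparisons of CCND2mut. The groups did not overlap for 1 member that was higher and 2 that were lower in CCND2wt against Vec (24.6% and 23.7% of all tested genes), for 3 that were lower in CCND2mut against Vec (29.2%, with 27.4% higher) and for 4 that were lower in CCND2mut against CCND2wt (32.2%, with 30.9% higher). The median log2 fold changes of the 6 tested members were -0.07, -1.45 and -2.02 in that order, beside -0.04, -0.03 and 0.02 over all tested genes. These comparisons share groups and are not independent of one another.

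**Figure D1:**
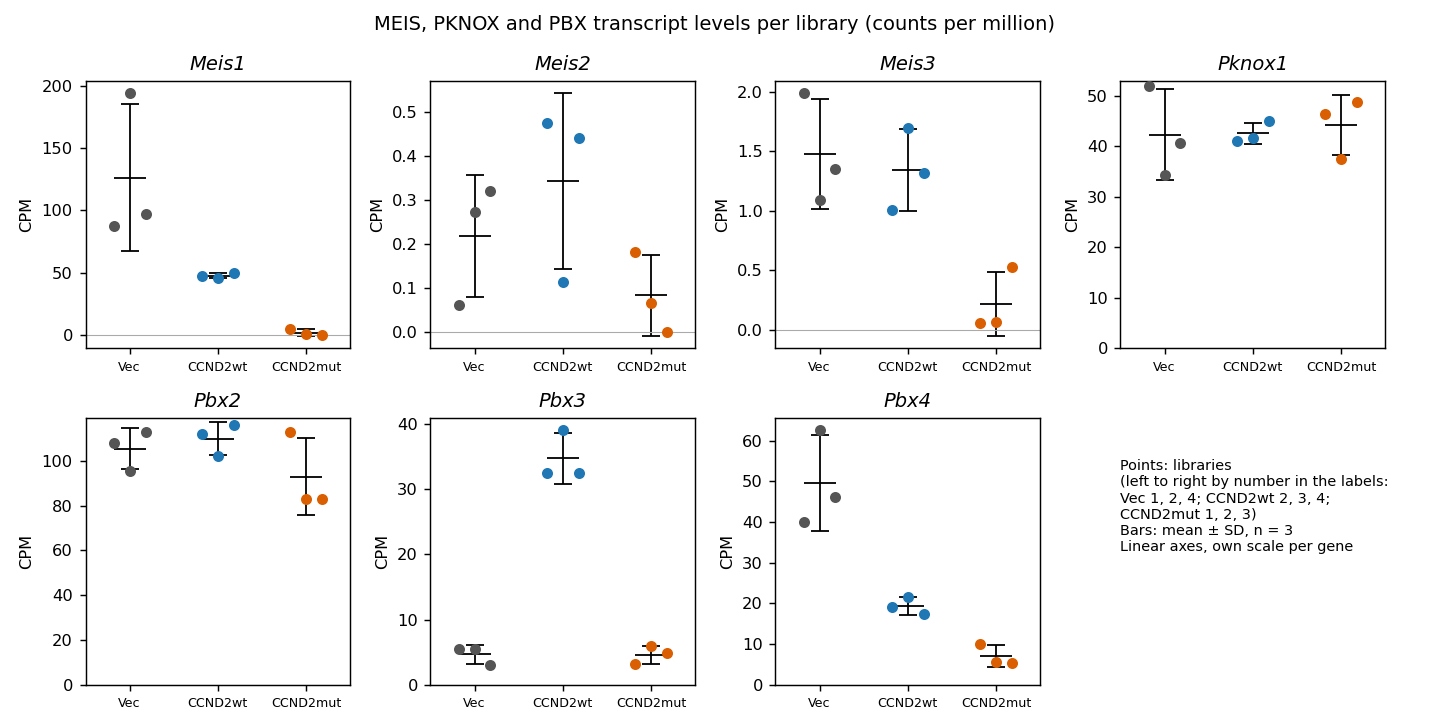
Level of each gene in CPM (linear axes, each gene on its own scale) in the 9 libraries, with points for libraries and bars for mean ± SD over 3 libraries. Meis1 falls from 87.6 to 194 CPM in Vec to at most 5.04 in CCND2mut, Pbx3 stands at 32.4 to 39.1 in CCND2wt and at most 5.87 elsewhere, and the Pknox1 and Pbx2 groups overlap.

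Meis1, the MEIS gene of blood stem cells, lies on chromosome 11 (ENSMUSG00000020160; 18879817 to 19018985 on the minus strand in mm10). It stood at 87.6, 194 and 97.3 CPM in Vec 1, 2 and 4. It stood at 47.5, 45.9 and 50 CPM in CCND2wt 2, 3 and 4. In CCND2mut 1, 2 and 3 it stood at 5.04, 0.668 and 0.332 CPM, which rest on 83, 10 and 5 counts. The 3 groups did not overlap, Vec 2 was the highest library, and CCND2mut 1 kept several times the level of the other CCND2mut libraries. Meis1 fell in CCND2mut against Vec, with a log2 fold change of -5.94 (SE 0.85, edgeR adjusted p = 0.000717; 95% interval -7.88 to -4). This was the 263rd largest fall of the 15660 tested genes, and 1.68% of them had a log2 fold change as low. Meis1 also fell in CCND2mut against CCND2wt, with -4.54 (SE 0.807, edgeR adjusted p = 0.00221). Without CCND2mut 1 these changes were -7.96 and -6.56, and both still passed the test.

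Against Vec, the Meis1 value in CCND2wt was -1.40 (SE 0.675; 95% interval -2.94 to 0.15) and did not pass in edgeR (adjusted p = 0.176). Each CCND2wt library was nevertheless below each Vec library. The mean went from 126 ± 58.6 CPM in Vec to 47.8 ± 2.06 in CCND2wt. The call turned on the setting: the adjusted p was 0.0272 in limma-voom, 0.019 with the 2 groups fitted on their own and 0.0168 without CCND2mut 1, and it ranged from 0.00577 to 0.686 over the 19 alternatives.

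The transcribed region of Meis1 holds other annotated transcripts whose reads followed the same order. Gm37818, on the same strand, had 355 counts in Vec, 170 in CCND2wt and 3 in CCND2mut. The transcript 2900018N21Rik, also on the same strand, had 179, 50 and 3. The antisense transcript Gm16141 had 39, 11 and 0 counts. These transcripts thus also held most of their reads in Vec and nearly none in CCND2mut. The strand setting of the counting is not given in the sources used here, so that reads of sense and antisense transcripts cannot be told apart. No other tested protein-coding gene lies within 500 kb of Meis1.

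Meis2 lies on chromosome 2 (115863064 to 116065839, minus strand) and is best known from the nervous system, limbs and heart. It has also been described in human leukaemia with AML1-ETO. It had 1, 4 and 5 counts in Vec, 9, 2 and 8 in CCND2wt and 3, 1 and 0 in CCND2mut. The highest value was 0.476 CPM, the groups overlapped, and the count of 0 in CCND2mut 3 allows up to 0.199 CPM (3 counts, counting error only). Meis2 did not pass the filter on low counts and no difference was detectable at this depth. Without that filter its log2 fold change was 0.70 (SE 0.954) in CCND2wt and -1.27 (SE 1.1) in CCND2mut against Vec, with edgeR adjusted p of 0.687 and 0.452.

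Meis3 lies on chromosome 7 (16175090 to 16186504, plus strand) and is best known from patterning of the hindbrain. It stood at 1.99, 1.09 and 1.35 CPM in Vec and at 1.01, 1.70 and 1.32 CPM in CCND2wt. In CCND2mut it stood at 0.0607, 0.0668 and 0.531 CPM, from 1, 1 and 8 counts. The CCND2mut libraries were below the other 6, while those of Vec and CCND2wt overlapped. Meis3 fell in CCND2mut against Vec (-2.73, SE 0.702, edgeR adjusted p = 0.0112) and against CCND2wt (-2.59, SE 0.701, edgeR adjusted p = 0.0153). Without CCND2mut 3, which holds 8 of the group's 10 counts, the changes were -4.38 and -4.24. Without CCND2wt 3 the second was not called (-2.39, adjusted p = 0.0545 in edgeR), nor was it with the CCND2wt libraries summed to 1 sample (-2.61, adjusted p = 0.139). With Vec 1 and CCND2mut 1 both left out the first was -1.98 (adjusted p = 0.0497). In CCND2wt against Vec the value was -0.14 (SE 0.587, edgeR adjusted p = 0.891), and its sign changed with the libraries used.

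Pknox1, also known as Prep1, encodes a MEIS relative that binds PBX proteins in most tissues. The gene lies on chromosome 17 (31564749 to 31607684, plus strand). It stood at 52.0, 34.4 and 40.6 CPM in Vec, 41.0, 41.6 and 45.0 in CCND2wt, and 46.3, 37.4 and 48.8 in CCND2mut. The groups overlapped, and their means of 42.3 ± 8.92, 42.5 ± 2.13 and 44.2 ± 6.01 CPM differed by less than the SD within Vec. Against Vec the log2 fold change was 0.01 in CCND2wt (95% interval -0.37 to 0.39) and 0.06 in CCND2mut (95% interval -0.32 to 0.44). Between CCND2mut and CCND2wt it was 0.05 (95% interval -0.33 to 0.44). The edgeR adjusted p were 0.981, 0.775 and 0.811, and the signs of these values changed with the settings. In CCND2mut against Vec the interval ran from 0.801-fold to 1.36-fold.

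Pbx2, the most widely expressed of the PBX genes examined, lies in the major histocompatibility region of chromosome 17 (34591266 to 34597400, plus strand) and overlaps Gpsm3 on the same strand. It stood at 108, 95.5 and 113 CPM in Vec, 112, 102 and 116 in CCND2wt, and 113, 83.1 and 83.0 in CCND2mut. CCND2mut 1 was as high as the highest Vec library, while CCND2mut 2 and 3 were below the other 7 libraries. The log2 fold change against Vec was 0.06 in CCND2wt (95% interval -0.26 to 0.38, edgeR adjusted p = 0.805) and -0.18 in CCND2mut (95% interval -0.51 to 0.14, edgeR adjusted p = 0.303). Between CCND2mut and CCND2wt it was -0.24 (95% interval -0.56 to 0.08, edgeR adjusted p = 0.191). Without CCND2mut 1 the values of CCND2mut were -0.35 against Vec and -0.41 against CCND2wt, and both passed (edgeR adjusted p of 0.0333 and 0.0188). Gpsm3 had 2925 counts in Vec, 2568 in CCND2wt and 3465 in CCND2mut, and how reads in the overlap were assigned is not known, so that the Pbx2 values are uncertain to that extent.

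Pbx3, a partner of HOXA9 and MEIS1 in leukaemia, lies on chromosome 2 (34171457 to 34373142, minus strand). It stood at 5.49, 5.50 and 3.01 CPM in Vec and at 3.16, 5.87 and 4.85 CPM in CCND2mut. It stood at 32.5, 39.1 and 32.4 CPM in CCND2wt. Each CCND2wt library was thus above each of the other 6, and Vec and CCND2mut overlapped. Pbx3 rose in CCND2wt against Vec, with a log2 fold change of 2.89 (SE 0.307, edgeR adjusted p = 0.00114), the 288th largest rise of the tested genes. The difference between CCND2mut and CCND2wt passed as well (-2.90, SE 0.307, edgeR adjusted p = 0.000161). Between CCND2mut and Vec the value was -0.01 (SE 0.296, edgeR adjusted p = 0.971), with an interval from 0.62-fold to 1.58-fold and a sign that changed with the libraries used. With the 3 close CCND2wt libraries summed to 1 sample, the rise against Vec was 2.92 and was not called (edgeR adjusted p = 0.0926), while the difference between CCND2mut and CCND2wt still passed.

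The 7 tested protein-coding genes within 500 kb of Pbx3 had a median log2 fold change of -0.12 in CCND2wt against Vec. The nearest, Mapkap1, which encodes a subunit of the TORC2 kinase complex, had a log2 fold change of 0.04 in CCND2wt against Vec (edgeR adjusted p = 0.812). The antisense transcript C79798, which overlaps Pbx3, had 0 counts in Vec, 7 in CCND2wt and 0 in CCND2mut.

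Pbx4 lies on chromosome 8 (69832491 to 69872292, plus strand) and is best known from the testis. It stood at 40, 62.7 and 46.1 CPM in Vec, 19.1, 21.6 and 17.4 in CCND2wt, and 10.1, 5.61 and 5.45 in CCND2mut. The 3 groups did not overlap, with Vec the highest and CCND2mut the lowest. As for Meis1, Vec 2 was the highest Vec library and CCND2mut 1 the highest CCND2mut library. Pbx4 fell in CCND2mut against Vec, with a log2 fold change of -2.81 (SE 0.286, edgeR adjusted p = 0.000134). It also fell in CCND2wt against Vec (-1.36, SE 0.269, edgeR adjusted p = 0.0116) and differed between CCND2mut and CCND2wt (-1.45, SE 0.275, edgeR adjusted p = 0.00281). The difference between CCND2wt and Vec was not called without CCND2wt 2 (-1.34, edgeR adjusted p = 0.0566) or without CCND2wt 4 (-1.28, edgeR adjusted p = 0.0614). It was not called either with the CCND2wt libraries summed to 1 sample (-1.33, edgeR adjusted p = 0.322), and in that setting the difference between CCND2mut and CCND2wt was not called (-1.47, edgeR adjusted p = 0.0596).

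**Figure D2:**
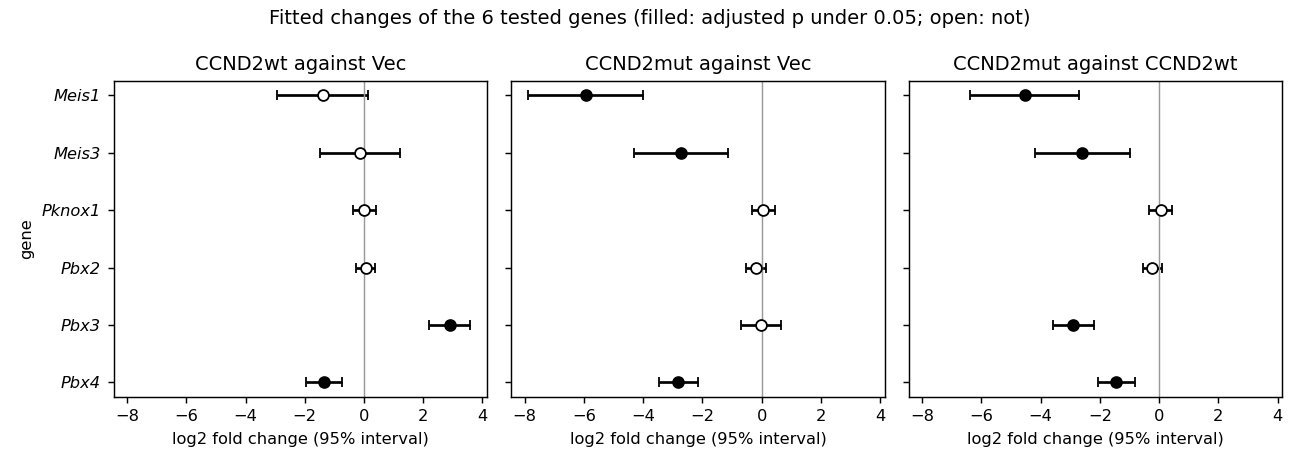
Log2 fold change (x axis) of the 6 tested genes in the 3 comparisons, with 95% intervals from the edgeR fit. Filled points passed an adjusted p of 0.05, and the intervals of Pknox1 and Pbx2 include 0 in each panel.

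Levels of different genes were compared as CPM per kilobase of the gene model. In Vec the order was Pbx2 (29.0 ± 2.46), Pbx4 (22.4 ± 5.30), Meis1 (12.0 ± 5.56), Pknox1 (6.14 ± 1.29), Pbx3 (0.764 ± 0.235), Meis3 (0.465 ± 0.147) and Meis2 (0.0181 ± 0.0115). The libraries of neighbours in this order overlapped for Pbx2 and Pbx4, for Pbx4 and Meis1, and for Pbx3 and Meis3. In CCND2wt the order was Pbx2 (30.2 ± 1.85), Pbx4 (8.73 ± 0.951), Pknox1 (6.17 ± 0.309), Pbx3 (5.67 ± 0.630), Meis1 (4.54 ± 0.196), Meis3 (0.423 ± 0.110) and Meis2 (0.0285 ± 0.0166), and Pknox1 and Pbx3 overlapped. In CCND2mut it was Pbx2 (25.5 ± 4.71), Pknox1 (6.41 ± 0.872), Pbx4 (3.19 ± 1.2), Pbx3 (0.757 ± 0.225), Meis1 (0.191 ± 0.249), Meis3 (0.0692 ± 0.0851) and Meis2 (0.00689 ± 0.00765), and Meis1 and Meis3 overlapped. Pbx2 thus led in each group, and Meis1 moved from the third place in Vec to the fifth in the other groups.

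The summed level of the 7 genes was 70.7 ± 7.42 CPM per kilobase in Vec, 55.8 ± 0.761 in CCND2wt and 36.1 ± 6.23 in CCND2mut. Of this sum, Meis1 held 16.5% ± 5.81 in Vec, 8.14% ± 0.245 in CCND2wt and 0.466% ± 0.556 in CCND2mut. Pbx4 held 31.3% ± 4.08, 15.7% ± 1.89 and 8.63% ± 1.70. Pbx3 held 1.08% ± 0.33, 10.2% ± 1.22 and 2.20% ± 0.928. Pbx2 held the largest mean share in each group, with 41.5% ± 7.22 in Vec, 54.1% ± 2.77 in CCND2wt and 70.5% ± 1.86 in CCND2mut, although its own level did not pass the test.

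**Figure D3:**
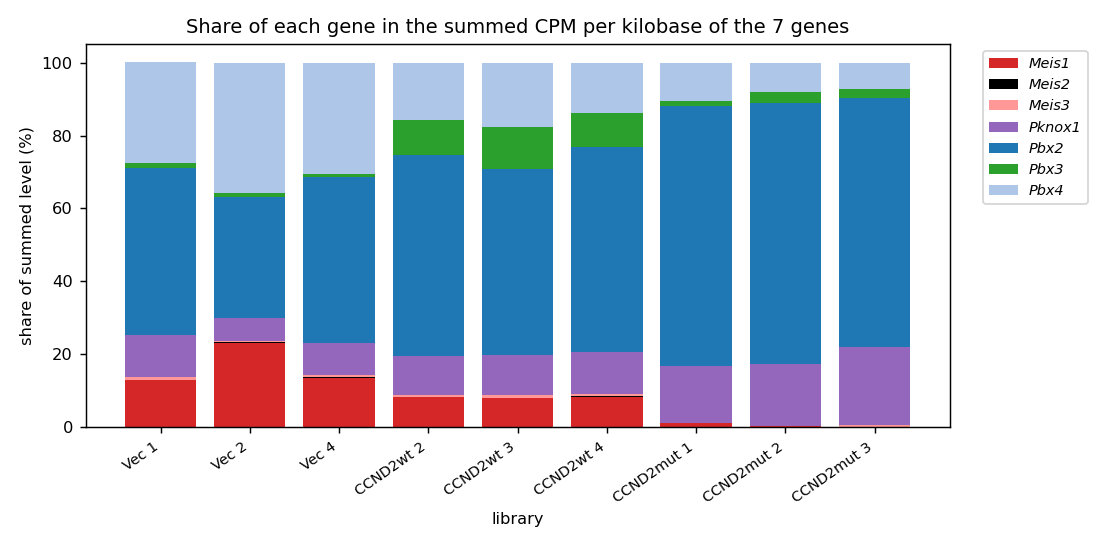
Share (y axis, percent) of each gene in the summed CPM per kilobase of the 7 genes, as stacked bars for each of the 9 libraries. The Meis1 share is 12.8% to 23.2% in Vec and at most 1.11% in CCND2mut, the Pbx3 share is 9.35% to 11.6% in CCND2wt, and Pbx2 is the largest in 8 libraries, with 33.1% beside 35.7% for Pbx4 in Vec 2.

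Markers of cell types were examined beside these genes. The 10 markers of stem and early progenitor cells summed to 3750 to 4830 CPM in Vec, 4330 to 4510 in CCND2wt and 1150 to 3250 in CCND2mut. In CCND2mut, 6 of these 10 fell against Vec in edgeR, where 26.9% of all tested genes did so. Within CCND2mut, library 1 had the lowest sum (1150 CPM) and the highest Meis1 and Pbx4, while Mecom and Slamf1 had 0 counts in libraries 2 and 3. The 10 markers of megakaryocytes and platelets summed to 371 to 449 CPM in Vec, 356 to 364 in CCND2wt and 77.3 to 158 in CCND2mut. Gp1bb had 0 counts in all 9 libraries. The 10 markers of maturing neutrophils summed to 482 to 14400 CPM in Vec, 140 to 251 in CCND2wt and 3110 to 18900 in CCND2mut, with the highest values in Vec 1 and CCND2mut 1. Against Vec, 1 of these 10 fell in CCND2wt and 1 rose in CCND2mut (edgeR), where 9.05% and 24.9% of all tested genes did so. Between CCND2mut and CCND2wt, 7 were higher in CCND2mut (edgeR), against 23.2% of all tested genes. The 10 markers of mast cells and basophils summed to 7290 to 10200 CPM in Vec, 16900 to 17700 in CCND2wt, where Pbx3 was high, and 1700 to 15500 in CCND2mut. The sum of 15500 CPM was that of CCND2mut 2, where Pbx3 stood at 5.87 CPM. These sums join markers that differed between the groups. Cma1 stood at 6240 ± 41.1 CPM in CCND2wt and 459 ± 602 in CCND2mut, and Hdc at 502 ± 138 and 2200 ± 2410. Of the 9 tested, 3 fell and 0 rose in CCND2mut against CCND2wt (edgeR), where 23.8% and 23.2% of all tested genes did so. Of the 9 tested markers of B cells, 6 fell in CCND2wt and 9 in CCND2mut against Vec (edgeR). Of all tested genes, 9.05% and 26.9% fell in these comparisons. The 10 B cell markers on the list summed to 96.7 to 1270 CPM in Vec, 33.1 to 38.2 in CCND2wt and 23.4 to 80.8 in CCND2mut, so that Vec was the highest group, as for Meis1 and Pbx4. Ms4a1 had 0 counts in CCND2mut 2 and 3. Of 9 erythroid markers, 1 fell in CCND2wt and 6 in CCND2mut against Vec, and they summed to 223 to 16300 CPM in Vec, 1070 to 1240 in CCND2wt and 149 to 438 in CCND2mut. Within Vec, library 2 had the lowest sums of B cell and erythroid markers and the highest Meis1 and Pbx4. The 10 markers of T and NK cells summed to 68.9 to 146 CPM in Vec, 33.9 to 44.1 in CCND2wt and 35.5 to 64 in CCND2mut, where Klrb1c had 0 counts. Those of monocytes and macrophages summed to 41.3 to 244, 34.6 to 39.6 and 242 to 539 CPM in the same order of groups, and those of stroma, endothelium and bone to 344 to 392, 353 to 373 and 452 to 632 CPM. Most of the last sums was Pecam1, with 290 ± 20.1, 325 ± 11.3 and 500 ± 91.8 CPM. Of the 5 tested in that list, 2 rose and 1 fell in CCND2mut against Vec (edgeR), beside 24.9% and 26.9% of all tested genes. The fall was that of Pdgfrb, from 71.8 ± 4.88 to 22.6 ± 5.25 CPM. The part of these cell types in the changes of Meis1, Pbx3 and Pbx4 was not tested.

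Further lists covered other homeobox genes, their regulators and genes tied to them. Of 10 other TALE genes, 3 were tested. Tgif1, a repressor of TGF-beta signalling, fell in CCND2wt, from 148 ± 68.2 CPM in Vec to 34.9 ± 12.9 (-2.08, SE 0.35, edgeR adjusted p = 0.00659). Its relative Tgif2 fell in CCND2mut, from 11.9 ± 8.59 CPM in Vec to 3.16 ± 0.841 (-1.91, SE 0.552, edgeR adjusted p = 0.019), a call not made by limma-voom. Mkx, a transcription factor of tendons, had 1 count in Vec, 3 in CCND2wt and 421 in CCND2mut, 350 of them in CCND2mut 3 (ratio to Vec 425, 95% counting interval 75.8 to 16800). That interval leaves out the spread between libraries, and the log2 fold change was 8.32 (SE 1.57, edgeR adjusted p = 0.00279). Pknox2, Irx2, Irx3 and Irx5 had 21 counts or fewer over the 9 libraries, and Irx1, Irx4 and Irx6 had 0.

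HOX proteins are the DNA-binding partners of PBX and MEIS proteins. Of 39 HOX genes, 9 were tested. In CCND2mut against Vec, 8 of the 9 fell and 0 rose (0 also at an unadjusted p under 0.05 in edgeR, in DESeq2 and in limma-voom). Of all tested genes, 26.9% fell and 24.9% rose. Hoxa9 went from 5.43 ± 1.91 CPM in Vec to 0.0830 ± 0.0921, and Hoxa7 from 9.54 ± 3.07 to 0.0810 ± 0.140. The median log2 fold change was -5.56 as fitted and -4.09 with the 3 genes that had 0 counts in CCND2mut set at their bound. In CCND2wt against Vec, 3 rose and 1 fell, with a median of 0.96, beside 9.71% and 9.05% of all tested genes. Hoxa4 rose by 2.87 (SE 0.477, edgeR adjusted p = 0.00586) and Hoxa3 by 1.42 (SE 0.377, edgeR adjusted p = 0.0441). For Hoxb4, 235 counts in the Vec libraries stood against 1 in CCND2wt, a ratio of 274 with a 95% counting interval of 48.7 to 10900. That interval leaves out the spread between libraries, and the edgeR value was -7.6 (SE 1.35, edgeR adjusted p = 0.00802). Hoxa9 itself stood at 3.93 ± 0.281 CPM in CCND2wt, a log2 fold change of -0.47 against Vec (SE 0.459, edgeR adjusted p = 0.508).

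The next list held 17 regulators of HOX and MEIS1 transcription, mostly parts of the MLL and elongation complexes and coactivators. In CCND2mut against Vec, 4 rose and 7 fell, where 24.9% and 26.9% of all tested genes did so. Their median was -0.27 (log2). Mllt3, a reader of acylated histones in the super elongation complex, went from 15.6 ± 2.58 to 2.67 ± 1.21 CPM (-2.55, SE 0.349, edgeR adjusted p = 0.000519). The methyltransferase gene Kmt2a (MLL) fell from 400 ± 85.7 to 191 ± 13.1 CPM, while Psip1, which tethers MLL to chromatin, rose from 65.1 ± 9.40 to 101 ± 7.50. In CCND2wt against Vec, 3 rose and 2 fell, with a median of -0.17, beside 9.71% and 9.05% of all tested genes. Pbxip1, whose product binds PBX proteins and blocks their binding to DNA, fell from 150 ± 17.9 to 65.1 ± 2.35 CPM (-1.21, SE 0.137, edgeR adjusted p = 0.00145), in the group where Pbx3 rose. In CCND2mut Pbxip1 stood at 127 ± 19.3 CPM (edgeR adjusted p = 0.169 against Vec).

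The last list held 22 genes tied to HOXA9 and MEIS1 in leukaemia models, of which 21 were tested. In CCND2mut against Vec, 15 fell and 2 rose, where 26.9% and 24.9% of all tested genes did so. The list's median was -1.44 (log2). Flt3, a cytokine receptor gene and known target of MEIS1, had 97.6 ± 42.7 CPM in Vec, 31.3 ± 4.08 with CCND2wt and 7.37 ± 3.27 with CCND2mut. Against Vec it fell in both, with log2 fold changes of -1.64 and -3.72 (edgeR adjusted p of 0.0237 and 0.000259). Ccl4 fell in both as well, by -6.14 in CCND2wt and -4.42 in CCND2mut (edgeR adjusted p of 0.00116 and 0.000496). Trib2, a pseudokinase that degrades C/EBP alpha, fell in CCND2mut (-3.67, SE 0.473, edgeR adjusted p = 0.000434), and Sox4, a transcription factor of progenitors, did so as well (-7.20, SE 1, edgeR adjusted p = 0.000634). The 2 that rose were Bcl2, which blocks cell death, from 8.13 ± 2.67 to 23.7 ± 0.750 CPM, and the hypoxia factor Hif1a, from 80.5 ± 9.44 to 242 ± 43.9. In CCND2wt against Vec, 3 rose and 4 fell (median 0.05), beside 9.71% and 9.05% of all tested genes. After Ccl4, the lowest adjusted p in CCND2wt were those of Ccl3 (-6.96, edgeR adjusted p = 0.00274) and Epas1 (2.76, edgeR adjusted p = 0.00646). Sox4 stood at 224 ± 21.2 CPM there beside 210 ± 56.8 in Vec (edgeR adjusted p = 0.943).

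**Figure D4:**
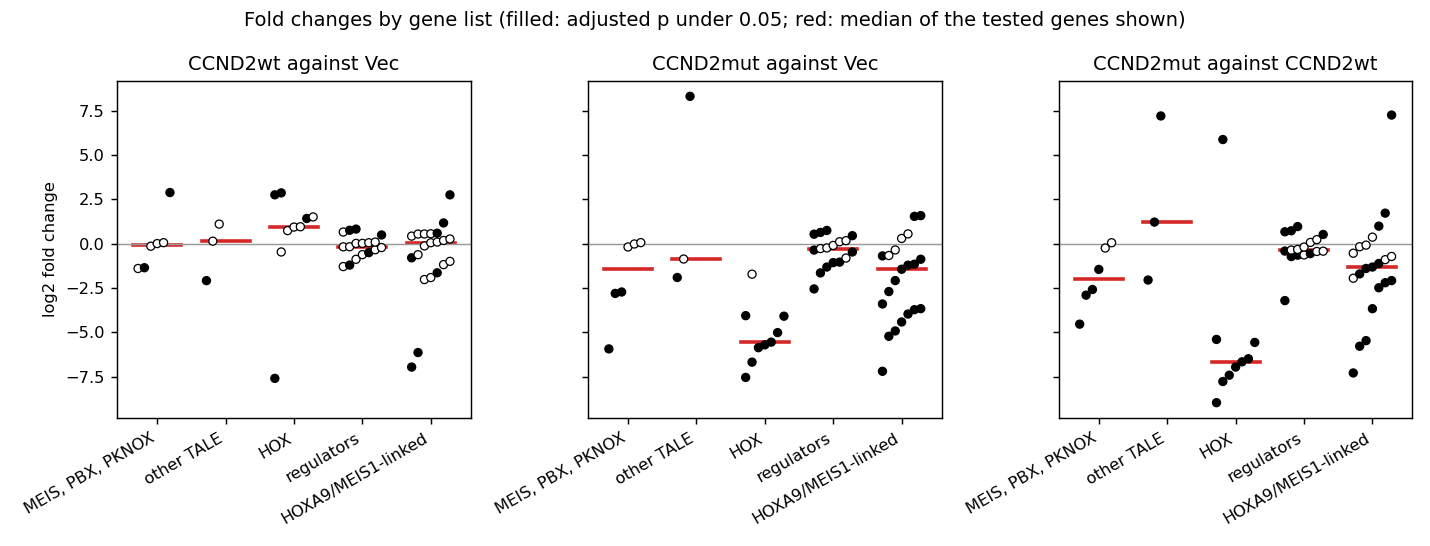
Log2 fold change (y axis) of the tested genes of 5 lists in the 3 comparisons, with 1 point per gene (filled at an edgeR adjusted p under 0.05) and a red line at the median of the points shown. The HOX genes have the lowest median in both CCND2mut panels, at -5.56 against Vec and -6.67 against CCND2wt as fitted (-4.09 and -5.57 with the 3 genes at 0 counts set at their bound), beside -1.45 and -2.02 for the MEIS, PBX and PKNOX genes.

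Homeobox genes as a class were mostly low in these cells. Of 232 genes that the deposited table assigns to the Homeobox family, 43 were tested. Among the 37 that are not members, 3 rose and 20 fell in CCND2mut against Vec (median -1.68 on the log2 scale), where 24.9% and 26.9% of all tested genes did so. The 20 falls include Tgif2 and the 8 HOX genes counted above, so that they are not separate from those lists. In CCND2wt against Vec, 3 of the 37 rose and 7 fell, with a median of 0.05, beside 9.71% and 9.05% of all tested genes. The median of the members was -1.45 in CCND2mut against Vec and -0.07 in CCND2wt against Vec.

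The genes most like each member were sought among protein-coding genes that averaged 5 CPM or more, by Pearson's r of log2(CPM + 1) over the 9 libraries. The 9 libraries form 3 groups, so that r largely reflects group differences, and it is given as a description. For Meis1 the highest were Plcb2 (r = 0.9966), a phospholipase C of blood cells, Slc16a11 (0.9951), a monocarboxylate transporter, and Csad (0.9946), an enzyme of taurine synthesis, and 437 genes had r above 0.95. For Pbx4 they were Trafd1 (0.9944), a regulator of innate signalling, Ttc17 (0.9937) and H2-Ob, part of the class II MHC peptide-loading machinery (0.9934). H2-Ob stood at 69.6 CPM in Vec, 12.1 in CCND2wt and 0.710 in CCND2mut.

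For Pbx3 the most alike were Myo9a (0.9855), an unconventional myosin gene, Cacna1h (0.9816), a T-type calcium channel gene, and Dtna (0.9802), which encodes a dystrophin-associated protein. Cacna1h stood at 3.20 CPM in Vec, 69.5 in CCND2wt and 2.39 in CCND2mut. For Meis3 they were Lrmda (0.9804), Memo1 (0.9723) and Ccdc50 (0.9646). For Pbx2 they were 9930012K11Rik (0.9637), Miip (0.9523) and Nat8l (0.952), and for Pknox1 they were Fzr1 (0.9528), an activator of the anaphase-promoting complex, Pip4p2 (0.9471) and Mtif3 (0.9221). Pbx2 and Pknox1 had 4 and 1 genes with r above 0.95, where Meis1 had 437 and Pbx4 197.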

How the data were processed

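RNA of mouse bone marrow cells was measured in 9 libraries, joined to groups by their titles, with 0 count columns left without a sample. Raw counts of reads per gene were deposited. Per the submitters' processing notes the authors used CASAVA 1.8, fastp, HISAT2 2.0.5 with mm10, featureCounts 1.5.0-p3 and DESeq2 1.20.0. No annotation release or strand setting is given in the sources used here. The other deposited value used was the gene model length, which has no named source per the file headers. Genes were filtered with filterByExpr, scaled by TMM and fitted in 1 quasi-likelihood model over all 9 libraries (edgeR 4.0.16, R 4.3.3), with 6 residual degrees of freedom and p-values adjusted by Benjamini-Hochberg over all tested genes. Intervals cover 95%. The biological coefficient of variation had a median of 0.246. The model was first tested on simulated data. The named genes were the members, up to 6 genes of each list by adjusted p among those called with at least 1 CPM in the higher group, and the 3 genes most like each member; others were chosen after their values were seen (Hoxa9 and Sox4 in CCND2wt, Pbxip1 in CCND2mut, Hif1a and Bcl2 as the only rises). Members and lists were chosen with earlier results of these data known. Alternatives used limma 3.58.1 and DESeq2 1.42.0. A gene of 1 list is not reported here.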

Additional observations from a re-analysis of the deposited data

How the results depend on the processing

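The 3 comparisons were repeated under 19 alternatives, which gave 339 values for the 6 tested genes, of which 309 kept their direction and their side of the threshold, 8 lost their call, 7 gained one and 15 changed sign. The calls of Meis1 and Pbx4 in CCND2mut against Vec, of Meis1 and Pbx3 in CCND2mut against CCND2wt, and of Meis3 in CCND2mut against Vec where it was tested held under each of them. With the CCND2wt libraries summed to 1 sample, 39 genes and 0 of the members were called in CCND2wt against Vec (edgeR; 2 members at an unadjusted p under 0.05), and 2378 genes and 2 members in CCND2mut against CCND2wt. Leaving out 1 library at a time gave 1019 to 3817 genes and 1 to 3 members in CCND2wt against Vec, with the lowest counts without a CCND2wt library. With Vec 1 and CCND2mut 1 both left out, 4470 genes were called there. With a replicate block for the number in the labels, 1636 genes and 1 member (Pbx3) were called in CCND2wt against Vec. Same-numbered libraries had deviations that correlated at -0.07 to 0.19 over genes, and nothing in the labels says that a number marks a shared mouse or batch, so that a call lost under the block is not read as a weaker effect.

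Values that changed sign had not passed the test. Leaving out 1 library at a time, Meis3 in CCND2wt against Vec ranged from -0.34 to 0.17 (above 0 without Vec 1 and without CCND2wt 2, at 0.17 and 0.04). Pbx3 in CCND2mut against Vec ranged from -0.25 to 0.20 (above 0 without Vec 1, Vec 2 or CCND2mut 1, at 0.12, 0.11 and 0.20). Pknox1 ranged from -0.10 to 0.21 in CCND2wt against Vec, from -0.08 to 0.23 in CCND2mut against Vec and from -0.02 to 0.12 in CCND2mut against CCND2wt. With Vec 1 and CCND2mut 1 both left out, Meis3 in CCND2wt against Vec was 0.16 and Pbx3 in CCND2mut against Vec 0.35. Pknox1 was -0.03 with the replicate block in CCND2mut against CCND2wt and -0.01 with the stricter filter in CCND2wt against Vec. That filter removed Meis3. The cause of these changes was not tested. Depth limits Meis2 and, in CCND2mut, Meis3 and Meis1, which rest on 4, 10 and 98 counts there.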
